A study of Mus musculus with 12 samples.

Results

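The probes described here are 503 of the 90752 different non-control probes on a mouse array, tied together by their sequences alone. Any 2 probes that share at least 25 consecutive bases on the same strand were linked, and the 503 form the largest set joined through such links. Each probe is 60 bases long. The joint sequence rebuilt from them is the 3′ part of B2, a short interspersed element of the mouse genome, printed in the sense of the B2 transcript. The class was read from the letters of that sequence and no repeat library was used. The members carry IDs that begin with MOUSELNCRNA, and the files give those IDs no gene names.

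The arrays measured RNA from the right sciatic nerve of C57Bl6 mice about 2 months old, at day 0, 3, 7 and 14 after the nerve was crushed for 30 s. The piece taken was the 0.5 cm distal to the crush, in which axons cut off from their cell bodies degenerate while Schwann cells and macrophages clear myelin. Each day had 18 mice in 3 pools of 6, with 1 array per pool, so the 12 arrays cover 72 mice. The protocol describes the crush for the mice of every day, day 0 included, and no group with an uncrushed nerve was analysed here. The study asked which RNAs, long non-coding ones in particular, differ between these days.

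B2 copies are retroposons derived from a tRNA gene, spread through the genome of rodents. RNA polymerase III reads them from a promoter inside the element, and many copies also lie within introns and untranslated ends of longer RNAs made by RNA polymerase II. Their A-rich tail holds a polyadenylation signal, and free B2 RNA is known to rise after heat shock in mouse cells. A probe of the kind described here can bind any RNA with a sufficiently similar copy, so its signal sums over many loci and over both kinds of transcript.

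The rebuilt sequence is shown because every other result is placed along it. It is 126 bases long and takes the most frequent base at each position. The capitals at positions 7 to 15, counted from 1 at its 5′ end, mark letters of the form GTTCNANNC, the form of the B box of a tRNA promoter. The capitals at 108 to 121 mark 3 overlapping copies of the polyadenylation signal AATAAA.

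Joint sequence: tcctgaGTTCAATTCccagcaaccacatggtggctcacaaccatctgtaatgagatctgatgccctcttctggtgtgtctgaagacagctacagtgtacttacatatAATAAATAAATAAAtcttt

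Single probes are shown for the range of fits to this sequence. Capitals now mark bases that match the joint sequence, and lower case marks bases that differ or lie beyond it. MOUSELNCRNA_22517 has the most links, to 193 other members, and matches at all 60 bases, over positions 59 to 118. MOUSELNCRNA_18351, MOUSELNCRNA_27240 and MOUSELNCRNA_20346 are the members nearest the middle of the first, second and last stretch of the joint sequence when it is cut into 3 equal stretches. MOUSELNCRNA_51689 gave the highest and MOUSELNCRNA_32956 the lowest mean signal of the family.

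MOUSELNCRNA_22517: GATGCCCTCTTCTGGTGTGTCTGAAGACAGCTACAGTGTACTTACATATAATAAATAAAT
MOUSELNCRNA_18351: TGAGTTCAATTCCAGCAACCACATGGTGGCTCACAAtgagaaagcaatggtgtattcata
MOUSELNCRNA_27240: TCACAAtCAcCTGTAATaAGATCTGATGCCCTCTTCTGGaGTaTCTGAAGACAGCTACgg
MOUSELNCRNA_20346: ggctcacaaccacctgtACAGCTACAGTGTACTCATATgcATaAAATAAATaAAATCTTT
MOUSELNCRNA_51689: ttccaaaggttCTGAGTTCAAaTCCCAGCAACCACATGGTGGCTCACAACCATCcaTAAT
MOUSELNCRNA_32956: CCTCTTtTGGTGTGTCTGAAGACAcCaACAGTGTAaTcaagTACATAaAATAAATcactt

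The next members are shown because their signals changed most between days, upwards for the first pair and downwards for the rest. Capitals again mark matches to the joint sequence.

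MOUSELNCRNA_66819: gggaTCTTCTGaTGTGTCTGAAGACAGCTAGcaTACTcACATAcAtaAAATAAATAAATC
MOUSELNCRNA_25334: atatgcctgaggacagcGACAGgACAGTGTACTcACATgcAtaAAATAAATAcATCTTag
MOUSELNCRNA_2002: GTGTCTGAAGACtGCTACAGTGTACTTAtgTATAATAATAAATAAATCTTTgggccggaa
MOUSELNCRNA_16837: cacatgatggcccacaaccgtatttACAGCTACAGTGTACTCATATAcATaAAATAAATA
MOUSELNCRNA_75962: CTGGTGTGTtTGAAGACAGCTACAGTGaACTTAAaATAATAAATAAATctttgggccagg
MOUSELNCRNA_9014: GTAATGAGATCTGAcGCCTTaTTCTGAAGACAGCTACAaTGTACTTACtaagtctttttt

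Of the 503 members, 499 aligned to the joint sequence over at least 25 bases. The median aligned length was 57 bases, the median identity over aligned bases was 93.3%, and 199 alignments held a gap. All 60 bases aligned in 152 members, and 5 members were identical to the joint sequence over their whole length. No sequence occurred under more than 1 probe name, so the 503 members are 503 distinct oligos. Coverage along the element was uneven: 420 probes lay over position 86, and the 43 positions covered by at least 300 probes fell between 63 and 106. The B box end was thin. Only 62 members had their middle in the first stretch, against 195 in the second and 246 in the last.

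The 4 members that could not be placed were MOUSELNCRNA_4131, MOUSELNCRNA_42650, MOUSELNCRNA_61333 and MOUSELNCRNA_62729, which are named for that reason and not by the rule for named probes. MOUSELNCRNA_42650 began with 21 bases that match positions 105 to 126 of the joint sequence with 1 gap, followed by other sequence. MOUSELNCRNA_62729 ended in its first 13 bases. MOUSELNCRNA_4131 and MOUSELNCRNA_61333 carried letters resembling the 5′ head of B2, which lies upstream of the joint sequence. Among RefSeq miRNA hairpins (GRCm38.p6), those of Mir3473b, Mir3473c, Mir3473f and Gm51275 shared at least 20 consecutive bases with a member, out of 1005 hairpins. The mature miRNA of Mir3473b, on chromosome 10 from 41670774 to 41670793, shared 20 bases with 1 member. It is printed with its seed, bases 2 to 8, in capitals, because it shows how far B2-like sequence reaches into annotated small RNAs.

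mmu-miR-3473b: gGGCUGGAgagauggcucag

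The number of links ranged from 1 to 193 with a median of 18, and 41 members hung on the family by 1 link. The 25-base rule sets the family's edge. Linking at 30 bases gave a largest family of 311, all of them among the 503. Linking at 20 bases gave 1693, which contained all 503. At 25 bases the next largest families held 380 and 323 probes. Base composition of the members was narrow, with a GC content from 35.0% to 53.3% and a median of 38.3%, against a median of 41.7% over all probes on the array.

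The polyadenylation signal AATAAA occurred in 220 members (43.7%) in the printed sense, against 14.7% of all probes. Its reverse complement, TTTATT, occurred in 2 members (0.398%), against 3.91% of all probes. GTTCNANNC was found in 32 members (6.36%), against 1.30% of all probes, and on the opposite strand in 0 members, against 1.11% of all probes. These matches describe letters only.

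Copies were not all alike. At 4 positions covered by at least 100 members, a second base occurred in at least 20% of the members there: A53G, T61C, T74A and T101C, each written as the joint base, the position and the second base. A53G was carried by 47 of 189 members over that position, T61C by 76 of 267, T74A by 110 of 398 and T101C by 69 of 302. Some second bases seldom met in 1 probe. Of 170 members with the first or second base at both 53 and 61, 43 carried A53G alone, 51 carried T61C alone and 1 carried both. Of 142 members spanning 53 and 74, 2 carried both A53G and T74A, with 37 and 52 carrying either alone. Of 250 spanning 74 and 101, 5 carried both T74A and T101C, with 80 and 53 carrying either alone. Of 155 spanning 61 and 101, 3 carried both T61C and T101C, with 54 and 25 carrying either alone. T61C and T74A met more often, in 36 of 227 members, beside 35 with T61C alone and 38 with T74A alone. A53G and T101C met in 6 of 83 members, beside 5 with A53G alone and 4 with T101C alone. The members share a B2 ancestry and overlap one another, so these counts are descriptions of the probe set.

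The family was also set against RefSeq promoter windows (GRCm38.p6), each reaching from 250 bases before to 50 bases after a gene's start. Of 32851 windows, 74 (0.225%) shared at least 25 consecutive bases with a member on the gene's strand, and 90 (0.274%) on the opposite strand. The full 60 bases of 11 members lay inside a window. Among them, MOUSELNCRNA_22517 lay opposite to Gm31277, a predicted gene on chromosome 8, and MOUSELNCRNA_15315, named after the match was seen, lay on the strand of Hilpda, a lipid droplet protein gene on chromosome 6. Such a match does not assign a probe to that locus, since the same letters can recur elsewhere in the genome.

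Signals are given as log2 of the processed Cy3 brightness after all arrays were set to a common 75th percentile, which lay at 9.34 on this scale. They are relative to each array's 75th percentile and depend on how well each probe binds, so the signals of different probes do not rank RNA amounts. All 503 members were well above background on all 12 arrays and none was saturated. The mean signal over the arrays ranged from 8.04 to 18.43 between members, with a median of 17.44 and the middle 50% between 16.24 and 17.87. Over all probes the median was 6.41, and the median member exceeded 99.5% of the probes. The family makes up 0.554% of the probes, yet 392 of the 1196 probes with a mean signal of at least 16 (32.8%) were members.

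Brightness varied with the fit to the element. Members aligned over all 60 bases had a median signal of 17.76, those with 1 to 5 bases outside 17.52, those with 6 to 15 outside 17.01, and those with 16 or more outside 15.39. Members with at least 100 links had a median of 17.86, and those with under 10 links had one of 16.43. Across the 503 members, Spearman's rho with the mean signal was 0.56 for the number of links, 0.42 for GC content and 0.38 for identity. These properties move together along the element, and they were not separated. The stretches from 5′ to 3′ had median signals of 17.53, 17.69 and 17.07, with a median GC content of 45.0%, 43.3% and 35.0%.

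The second bases went with different signals. Members with T74A had a median signal of 17.76, against 17.28 for those with the joint base. Members with T101C had a median of 16.44, against 17.61. The medians were 17.79 against 17.57 for T61C and 17.66 against 17.84 for A53G. Links differed beside them, with a median of 57 for T74A against 21.5 and of 9 for T101C against 57, and their part in the signals was not tested.

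Other probes on the array also carry this sequence. With at least 40 aligned bases at 80% identity or more, 166 probes outside the family lay along the joint sequence on the same strand, and their median signal was 14.18. On the opposite strand there were 87 such probes, with a median of 8.32 and a highest of 12.67. The opposite-strand probes detect the antisense of the B2 transcript, and the brightest of them lay below the first quartile of the members. Of the 83 antisense probes tested, 1, 1 and 5 were called at day 3, day 7 and day 14 against day 0, 3 for day 7 against day 3 and 0 for day 14 against day 7. That is at most 6.02%, against 9.96% to 48.4% of all probes. Few calls did not mean small differences. In the same order, the median log2 differences of these antisense probes were 0.41, 0.20, -0.05, -0.22 and -0.22. Over all probes they were 0.03, -0.11, -0.13, -0.11 and -0.05. The antisense medians were not tested.

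The slides stood apart for these probes, and this bears on every comparison by day. Slide 1 held replicates 1 and 2 of day 0 and of day 3. Slide 2 held replicate 3 of day 0, replicate 3 of day 3 and replicates 2 and 3 of day 7. Slide 3 held replicate 1 of day 7 and all of day 14. Within day 0 the slide 2 array exceeded the slide 1 mean by a median of 0.31 over the members, and within day 3 by 0.43, while the same medians over all probes were 0.02 and 0.05. Over the 804 other probes with a signal of at least 16 it was 0.37 and 0.52. The size of the gap followed the member's signal, with a Spearman's rho of 0.89 in day 0 and 0.96 in day 3. The members were ranked by mean signal into 4 groups of 125 or 126. In the brightest group the gap was 0.45 and 0.71. In the dimmest it was -0.27 and -0.38. Among the 62300 other probes tested rho was 0.38 and 0.35, and among 322 probes of the third largest family it was 0.90 and 0.94. On slide 2 the bright members thus read higher and the dim ones lower than on slide 1, as in the third largest family.

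The family's median signal by array was 17.35, 17.36 and 17.67 for replicates 1 to 3 of day 0. It was 17.38, 17.39 and 17.82 at day 3. At day 7 it was 17.33, 17.54 and 17.38. At day 14 it was 17.40, 17.29 and 17.39. The highest value of day 0 and of day 3 was in each case the slide 2 array, and the ranges of the 4 days overlapped. The day means were 17.46 ± 0.18, 17.53 ± 0.25, 17.42 ± 0.11 and 17.36 ± 0.06 (SD, n = 3 arrays). Replicate 3 of day 3 was the highest of the 12 arrays for 335 of the 503 members. In bulk RNA, fewer cells of a type and less RNA per cell cannot be told apart.

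Each probe was tested with limma over all 62803 probes that passed the filter on dim probes, and all 503 members passed. A member was called where its Benjamini-Hochberg adjusted p was below 0.05. Over the 4 days together, limma's F test called 131 members, which is 26.0% of them, against 71.1% of all probes tested. Without slide in the fit, the share of members called was below the background in each of the 5 comparisons. In the fit with slide as a block it was above the background for day 7 against day 3 and close to it for day 7 against day 0, as given with those comparisons. The other probes with a signal of at least 16 numbered 804 and are called the other bright probes. Among the 392 members of that brightness the share called was lower than theirs in each comparison, at 0%, 10.5%, 10.5%, 7.40% and 0% for day 3, day 7 and day 14 against day 0, day 7 against day 3 and day 14 against day 7. These differences in share were not tested. The members repeat much of each other's sequence, so their calls are not independent.

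At day 3, B2 signal stayed close to day 0. The median log2 difference of the members was 0.08, beside 0.03 over all probes, and the members ranged from -0.41 to 0.88. Of the 503, 4 rose and 0 fell (0.795%), against 44.4% of all probes called, 21.7% that rose and 22.7% that fell, and 37.7% of the other bright probes. At an unadjusted p below 0.05 there were 7. In limma with slide as a block, 5 rose and 21 fell (5.17%), against 55.9% of all probes. After quantile normalization 4 rose and 18 fell, and on the deposited values 4 rose and 19 fell. Under these settings most member calls were falls. Under each of them 46.0% of all probes were called, and 48.6% of those calls were rises. No member differed 2-fold or more, while 19.3% of all probes did. Leaving out replicate 2 of day 3 left 2 calls, against 42.2% of all probes. Within slide 1 the median difference was 0.03 and within slide 2 it was 0.17.

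The largest rise was that of MOUSELNCRNA_66819, which covers the 3′ part of the element from position 66. Its log2 signal was 9.45, 9.40 and 9.38 at day 0 and 10.26, 10.17 and 10.42 at day 3. It stood at 9.96, 10.03 and 9.79 at day 7 and at 9.50, 9.73 and 9.52 at day 14. The day 3 arrays lay above all others, the day 7 arrays lay between, and slides 1 and 2 gave alike values within a day. The rise over day 0 was 0.88 ± 0.11 (SE, n = 3 arrays per day) at day 3, with a limma adjusted p of 6.89e-05, and 0.52 ± 0.11 at day 7, with an adjusted p of 0.00321.

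MOUSELNCRNA_25334, whose first 17 bases lie outside the alignment, rose at each later day. Its values were 10.09, 10.30 and 10.60 at day 0, 10.69, 10.82 and 10.74 at day 3, 11.15, 10.93 and 11.12 at day 7, and 10.62, 10.84 and 10.73 at day 14. Day 0 lay below every later array, by a narrow margin for its slide 2 array. The differences from day 0 were 0.42 ± 0.13 at day 3, 0.73 ± 0.13 at day 7 and 0.40 ± 0.13 at day 14 (SE), with limma adjusted p of 0.0248, 0.00125 and 0.0305. With slide as a block the day 14 difference was 0.15, with an adjusted p of 0.717. The other two that rose at day 3, named after their values were seen, were MOUSELNCRNA_18342 and the unplaced MOUSELNCRNA_42650, each by 0.41 with limma adjusted p of 0.0394 and 0.00951. MOUSELNCRNA_18342 aligned over 26 bases only. All 4 that rose lay in the dimmest of the 4 signal groups.

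At day 7, without slide in the fit, a share of the family close to that of all probes fell, and these were the dimmer members. Of the 503, 125 fell (24.9%) and 2 rose (0.398%), while 24% of all probes fell and 20.4% rose. Calls in either direction made up 25.2% of the members, 44.4% of all probes and 38.4% of the other bright probes. The median difference was -0.03, beside -0.11 over all probes, and the range ran from -1.47 to 0.73. At least a 2-fold difference was seen in 16 members, and in 18.0% of all probes. Without slide in the fit, the calls lay in the lower ranks of signal: 97 of the 126 members in the dimmest group fell, 28 of 126 in the next, and 0 in the other two. The median difference by group was -0.53, -0.14, 0.04 and 0.13 from dimmest to brightest. Spearman's rho between difference and mean signal was 0.91 across the 503 members, 0.92 across the 322 probes of the third largest family and 0.21 across the 62300 other probes. These correlations share the arrays and the scaling.

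MOUSELNCRNA_2002 showed the largest fall at day 7. Its log2 signal at day 0 was 14.05 and 14.18 on slide 1 and 13.02 on slide 2. At day 3 it was 13.86 and 13.86 on slide 1 and 12.31 on slide 2. It was 12.47, 12.08 and 12.30 at day 7, and 12.44, 12.66 and 12.59 at day 14. Every day 7 and day 14 array lay below every day 0 array, but the slide 2 array of day 0 lay closer to them than to its fellows on slide 1. At day 7 it fell by 1.47 ± 0.40 on the log2 scale (SE, a 2.76-fold lower signal), with a limma adjusted p of 0.0132. With slide as a block it fell by 0.68, with an adjusted p of 0.00824.

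MOUSELNCRNA_16837, which matches the element over 33 bases at its 3′ side, showed the next largest. Its values were 12.51, 12.51 and 11.37 at day 0, 12.38, 12.30 and 11.13 at day 3, 10.08, 10.92 and 11.07 at day 7, and 10.77, 10.93 and 10.91 at day 14. Again the slide 2 arrays of days 0 and 3 lay between slide 1 and the later days. It fell by 1.44 ± 0.40 at day 7, with a limma adjusted p of 0.0136, and by 0.35 with slide as a block, with an adjusted p of 0.023.

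The slide arrangement moved the size of the day 7 falls. With slide as a block in limma the members' median was -0.24 and 182 members fell, 109 of them among the 125. The block's medians by signal group were -0.32, -0.29, -0.22 and -0.19, so the brighter groups lay below 0 too, and 83, 90, 9 and 0 of their members fell. Hence the sign of the medians in the 2 brighter groups depended on whether slide was in the fit. In both fits, most or all of the falls lay in the 2 dimmer groups. With the block, 36.8% of the members were called in either direction, against 37.5% of all probes. Of the member calls 3 were rises and 182 were falls, while 44.8% of the calls over all probes were rises. Within slide 2, which holds 1 array of day 0 and 2 of day 7, the members' median difference was -0.19, with -0.16 and -0.10 in the 2 brighter groups, and 9 of 503 lay above 0. The same difference over all tested probes was 0.02. Calls within slide 2 alone are not given, since it holds 1 array of day 0. When replicate 1 of day 0 was left out, the count of calls without the block was 83, against 34.1% of all probes. It was 76 without replicate 2 of day 0, against 34.0%, and 204 without the slide 2 arrays of days 0 and 3. Of those 204, 139 fell and 65 rose, and 64.0% of all probes were called in that fit.

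Along the element, 81 of the 246 members of the last stretch fell at day 7, 32 of 195 in the second and 12 of 62 in the first. That was without slide in the fit, where 24% of all probes fell. With slide as a block, 100, 68 and 14 of them fell, in the same order. In that fit 37.5% of all probes were called in either direction, and 44.8% of those calls were rises. Members with the joint base at position 74 fell in 86 of 264 cases, and those with T74A in 5 of 110. Falls were seen in 29 of 69 members with T101C and in 39 of 227 with the joint base there. Signal differed between the same groups, and its part in these counts was not tested. Of the 164 tested same-strand probes outside the family, 85 fell, against 24% of all probes. The counts by base and for these outside probes are from the fit without slide.

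At day 14, 118 members fell and 1 rose, the latter being MOUSELNCRNA_25334. That is 23.7% called, against 48.4% of all probes, with 29% that fell and 19.4% that rose, and 29.4% of the other bright probes. The median difference from day 0 was -0.09, beside -0.13 over all probes, and 14 members differed at least 2-fold, as did 18.5% of all probes. From the dimmest to the brightest signal group the medians were -0.43, -0.15, -0.05 and 0.02, with 89, 29, 0 and 0 members that fell. The members that fell at both day 7 and day 14 numbered 106, which is 84.8% of the former and 89.8% of the latter. Both comparisons share the day 0 arrays.

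The largest falls at day 14 were those of MOUSELNCRNA_75962 and MOUSELNCRNA_6146. MOUSELNCRNA_75962 stood at 14.24, 14.37 and 13.09 at day 0 and at 12.36, 12.67 and 12.63 at day 14, and it fell by 1.35 ± 0.42 with a limma adjusted p of 0.0226. MOUSELNCRNA_6146 stood at 12.21, 12.17 and 10.90 at day 0 and at 10.40, 10.49 and 10.37 at day 14, and it fell by 1.34 ± 0.40 with an adjusted p of 0.0192. In both, the third day 0 value is the slide 2 array, and the groups did not overlap. With slide as a block they fell by 0.58 and 0.22, with limma adjusted p of 0.106 and 0.295.

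Day 14 shares no slide with day 0, so the block rests on day 7 to link them, and it left 5 members that fell (0.994%), all of them among the 118, against 16.5% of all probes called in that fit. They were MOUSELNCRNA_22417, MOUSELNCRNA_28083, MOUSELNCRNA_4131, MOUSELNCRNA_5758 and MOUSELNCRNA_61333, named after their values were seen. MOUSELNCRNA_4131 and MOUSELNCRNA_61333 are the unplaced members with letters of the B2 head. MOUSELNCRNA_4131 read 14.01, 14.03 and 13.77 at day 0 and 13.26, 13.27 and 13.28 at day 14. Its 3 day 0 arrays lay close to each other across slides, and it fell by 0.67 ± 0.10 without the block, with a limma adjusted p of 0.000496, and by 0.51 with it, with an adjusted p of 0.0288. The count of day 14 calls without the block was 50 and 33 when replicate 1 or 2 of day 0 was left out. It was 46, 59 and 64 when replicate 1, 2 or 3 of day 14 was. In the same order, 32.8%, 32.4%, 36.4%, 37.5% and 35.4% of all probes were called. The count was 31 after quantile normalization, where 48.2% of all probes were called.

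Between day 3 and day 7, 82 members fell and 0 rose, which is 16.3%, against 34.3% of all probes, with 18.6% that fell and 15.7% that rose, and 11.8% of the other bright probes. Of the 82, 65 lay in the dimmest signal group, and 29 of the 392 bright members were called. The members' median was -0.11, as it was over all probes. Of the 82 that fell, 73 had also fallen between day 0 and day 7, and the comparisons share the day 7 arrays. MOUSELNCRNA_9014, whose alignment skips bases in the middle of the element, fell by 1.17 ± 0.40 with a limma adjusted p of 0.0461. Its difference with slide as a block was -0.30, with an adjusted p of 0.125, which does not pass. It read 13.15, 13.09 and 11.72 at day 3 and 11.55, 11.33 and 11.57 at day 7, and the groups did not overlap, although the slide 2 array of day 3 lay closer to day 7 than to slide 1. Within slide 2 the members' median difference between these days was -0.35, beside -0.10 over all tested probes, and 9 of 503 lay above 0. Slide 2 holds 1 array of day 3, replicate 3, which was the highest of the 12 arrays for 335 members. Without that array, and without the block, the members' median was 0.04, beside -0.07 over all probes. In limma with slide as a block the members' median was -0.31, and 177 fell (35.2%) and 0 rose. In that fit 25.8% of all probes were called in either direction, and 42.3% of those calls were rises. Without the block, the number called was 13, 17 or 118 without replicate 1, 2 or 3 of day 3. In those fits 19.2%, 24.3% and 43.9% of all probes were called. The number was from 21 to 30 without any 1 array of day 7, against 19.4% to 30.2% of all probes. It was from 45 to 48 without any 1 array of day 14, against 29.5% to 29.7%. It was 140 without the slide 2 arrays of days 0 and 3, against 53.5%, and 6 after quantile normalization, against 35.4%.

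From day 7 to day 14 no member was called by limma, against 9.96% of all probes, 5.61% that rose and 4.35% that fell, and 2.11% of the other bright probes, and 5 had an unadjusted p below 0.05. The members' median difference was -0.05, the same as over all probes, with a range from -0.36 to 0.40. On slide 3, where replicate 1 of day 7 met the 3 arrays of day 14, the median difference was 0.02.

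The brightest member and the most linked one read highest on slide 2 and were not called between days. MOUSELNCRNA_22517, the exact match, read 17.99, 17.93 and 18.34 at day 0 and 18.00, 18.03 and 18.73 at day 3. At day 7 it read 18.04, 18.51 and 18.20, and at day 14 18.17, 17.98 and 18.13. In each of days 0, 3 and 7 the slide 2 arrays were the highest. Its differences from day 0 were 0.17, 0.17 and 0.01 (SE 0.20), with limma adjusted p of 0.55, 0.516 and 0.982. MOUSELNCRNA_51689, the brightest, spans the B box letters and went from 18.08, 18.03 and 18.78 at day 0 to 18.13, 18.16 and 19.20 at day 3, with a difference of 0.20 ± 0.29. The slide 2 array was the high one at both days, and the days overlapped.

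Members from the middle of the stretches were not called in any comparison without slide in the fit. MOUSELNCRNA_18351, of the B box stretch, had day means of 17.41 ± 0.33, 17.55 ± 0.43, 17.51 ± 0.17 and 17.38 ± 0.13 (SD, n = 3). MOUSELNCRNA_27240 had 17.48 ± 0.08, 17.57 ± 0.16, 17.31 ± 0.07 and 17.33 ± 0.06. It was lower at day 7 than at day 0 by 0.17 ± 0.10, with a limma adjusted p of 0.212. With slide as a block it was lower by 0.28, with an adjusted p of 0.0419. For day 7 against day 3 with the block, MOUSELNCRNA_18351 and MOUSELNCRNA_27240 differed by -0.40 and -0.38, with limma adjusted p of 0.043 and 0.0188. MOUSELNCRNA_20346 did not pass there, at -0.20 with an adjusted p of 0.148. MOUSELNCRNA_20346, whose alignment holds the polyadenylation signals, had 15.34 ± 0.01, 15.33 ± 0.06, 15.18 ± 0.01 and 15.36 ± 0.08. Its day 7 arrays lay below all others, at 15.19, 15.17 and 15.19, but the difference from day 0 of -0.16 ± 0.08 (SE) did not pass, with a limma adjusted p of 0.138. MOUSELNCRNA_32956, the dimmest, had 8.26 ± 0.47, 8.35 ± 0.39, 7.58 ± 0.32 and 7.98 ± 0.02, and its difference from day 0 at day 7 of -0.68 ± 0.26 had a limma adjusted p of 0.0528. That difference was -0.39 with slide as a block, with an adjusted p of 0.0436. From day 3 to day 7 it fell by 0.77, with an adjusted p of 0.0412.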

How the data were processed

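Intensity values came from 12 deposited 1-colour Agilent scanner files, made with Agilent Feature Extraction 10.7.1.1, per the file headers (10.7 per the submitters' processing notes). The processed signals, background-subtracted within each array per the file headers, were used. Spots flagged as outliers were left out, log2 was taken per spot, and the spots of a probe were averaged. Each array was then shifted to a common 75th percentile (mean 9.34). The authors' deposited log2 table, used as an alternative, has a median of 6.42 in every array and correlated at 0.993 to 1.00 with the scanner values. Probes were tested where well above background on all 3 arrays of a day or more (62803 of 90752), with limma 3.58.1 in R 4.3.3, 1 mean per day over all 12 arrays and Benjamini-Hochberg adjustment. Families came from networkx 3.6.1 and alignments from Biopython 1.88 in Python 3.11.15. Steps were tested on simulated data.

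The members and lists were chosen with earlier results of these data known. Named probes are the most linked, the brightest and dimmest, up to 2 called rises and falls per comparison with groups that do not overlap, and the member nearest the middle of each of 3 stretches. Others are said to be chosen after their values were seen. Pools are the labels' biological replicates. P-values measure the spread between arrays, which includes slides. Replicate numbers did not pair the samples: days 0 and 3 correlated by number (0.325, 0.449 and 0.590), but they share slides by number too, and other days did not. Slides were taken from the array barcodes. Apart from the matches to RefSeq promoter windows and miRNA hairpins, the probes were not placed on a genome. Nerve markers were not checked because the probes were not paired with gene names here. The number of arrays limits the precision.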

Additional observations from a re-analysis of the deposited data

How the results depend on the processing

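Fits that leave out 1 replicate are given further below and are not in the next tallies. Over the other alternatives, the count of members called moved by over 1.5 times in 32 cases and stayed within that in 38. Counts were compared without scaling to the number of members tested. The median difference moved past the spread between arrays of a day (0.166) in 3 cases and not in the other 67. For day 3 against day 0, day 7 against day 0, day 14 against day 0, day 7 against day 3 and day 14 against day 7, in this order, the main counts were 4, 127, 119, 82 and 0. Linking at 20 bases gave 151, 462, 489, 333 and 16 of the 1591 members tested in a larger family. Linking at 30 bases gave 0, 49, 49 and 31 of the 311 members of a smaller one in the first 4. Quantile normalization gave 22 for day 3, 31 for day 14 and 6 for day 7 against day 3, and the deposited log2 values gave 23, 31 and 6. Slide as a fixed block gave 26, 185, 5, 177 and 1, with medians of -0.24 for day 7 and -0.31 for day 7 against day 3. Slide as a random block gave 13 for day 3 and 44 for day 14. Within slide 2 the median for day 7 against day 3 was -0.35. Calls within slide 2 are not given, since it holds 1 array of day 0 and 1 of day 3. Only the arrays compared gave 1 for day 3 and 13 for day 7 against day 3. For day 7 against day 3, scaling over probes well above background on all arrays gave 47, and no filter on dim probes gave 31. Leaving out the slide 2 arrays of days 0 and 3, chosen after seeing the data, gave 9, 204 and 140 for day 3, day 7 and day 7 against day 3, and 3 for day 14 against day 7. The causes were not tested.

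Leaving out 1 replicate gave counts of 2 to 4, 76 to 146, 33 to 138, 13 to 118 and 0 to 0. The medians then ran from -0.06 to 0.18, -0.09 to 0.08, -0.15 to 0.01, -0.19 to 0.04 and -0.08 to 0.01. The replicate block gave 3, 129, 115, 82 and 0 and changed no call count by over 1.5 times. Quantile normalization moved the share of rises among all called probes from 46.0% to 55.2% at day 7, from 40.2% to 53.3% at day 14 and from 45.7% to 58.3% for day 7 against day 3. It raised the median of all probes from -0.11 to -0.01 at day 7 and from -0.13 to 0.01 at day 14. All members were well above background, so signal over background did not limit detection, but 3 arrays per day did limit precision.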
